A study of Mus musculus with 10 samples.

Results

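The 10 genes described here encode the co-receptors, adaptors and kinases that carry the signal of Toll-like receptor 4 (TLR4) from the cell surface to the first kinase step: Cd14 and Ly96, the adaptors Myd88, Tirap, Ticam1 and Ticam2, and the kinases Irak1, Irak2, Irak3 and Irak4. They were taken by symbol from a count table of 23284 genes, and all 10 were among the 12918 genes with enough counts to be tested. The cells were macrophages differentiated from bone marrow of C57BL/6J mice for 6 days in 30 ng/ml recombinant M-CSF, the growth factor that turns marrow progenitors into macrophages. The untreated group (labelled 0 h) received no ligand, and the other 4 groups received Kdo2-lipid A, the lipid core of lipopolysaccharide that activates TLR4, at 0.03 nM for 1 h, 0.03 nM for 2 h, 10 nM for 1 h or 10 nM for 2 h. Each of the 5 groups held 2 polyadenylated RNA libraries, 1 from each of 2 experiments described as independent. The labels do not say whether separate mice were used, so p-values measure only the spread between these libraries, which may be technical. No untreated group was kept for 1 h or 2 h, so a change against untreated cells cannot be told apart from an effect of time or handling, whereas doses can be compared at the same time.

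Lipopolysaccharide reaches TLR4 through CD14, a surface protein that hands the lipid to MD-2, the product of Ly96, which sits on the receptor's outer domain and holds the lipid. On the inner side, TIRAP brings MyD88 to the receptor at the plasma membrane, and MyD88 assembles IRAK4 with IRAK1 or IRAK2 into the Myddosome, which leads to NF-kB and MAP kinase activation. After the receptor moves to endosomes, TRAM, the product of Ticam2, brings in TRIF, the product of Ticam1, which leads to TBK1, IRF3 and type I interferon. IRAK-M, the product of Irak3, is known in macrophages as a brake on the MyD88 route.

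Library totals ran from 33179599 to 42167096 counts, and single counts of the 10 genes ran from 414 to 122305. Counting error is relatively largest for Ly96, whose counts were the lowest of the 10 in each group. Levels are given as CPM, counts scaled to a common library total, after TMM scaling, and in the order experiment 1, experiment 2. TMM scaling rests on the assumption that most genes do not change. At 10 nM 2 h 28.6% of tested genes rose and 30.1% fell against untreated cells under this scaling, so the assumption as worded was not met there. Macrophage markers (8 genes, such as Csf1r) summed to 23450 to 29866 CPM. Summed markers of other cells were lower: 18.4 to 37.6 CPM for 7 neutrophil genes, 7.93 to 14.9 for 6 dendritic cell genes, 4.92 to 9.74 for 5 B cell genes and 43.8 to 104 for 9 stromal and endothelial genes. T and NK cell, mast cell and erythroid markers each summed to at most 0.608 CPM, with the mast cell gene Tpsb2 at 0 in every library. The neutrophil sum was 30.7 to 37.6 CPM at 10 nM 2 h against 18.4 to 25.6 CPM in untreated cells, and the dendritic sum 14.6 to 14.9 against 7.93 to 10.3. The stromal sum was higher in experiment 2 in each group. The part of these in the results below was not tested. In such bulk libraries, fewer cells of a type and less RNA per cell cannot be told apart. The 2 libraries at 0.03 nM 2 h differed from each other more than those of any other group: the SD of the log2 difference over 8415 genes was 0.274 against 0.126 to 0.195, and it followed exonic length (Spearman rho -0.682 across genes, against -0.0286 to 0.369). Tirap, the longest of the 10 at 4868 exonic bases, was lower there in experiment 2 by a log2 difference of -0.26, and Myd88, at 1905 bases, was higher by 0.21. Ly96, the shortest at 603 bases, did not follow this trend, with a difference of -0.14.

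The sequences just before the start of 4 of the genes are shown because these genes took different courses: Myd88 and Irak2 were induced at both times at 10 nM, Ticam1 peaked at 1 h and Irak1 was not induced. They are the 250 bases before the RefSeq start (GRCm38.p6), written 5′ to 3′ on the gene's own strand, with matches to any of 6 motifs, searched on both strands, in capitals. In Myd88, which starts on the minus strand of chromosome 9, the window is chr9:119340019-119340268; in Ticam1 it is chr17:56276768-56277017 (minus strand); in Irak2 chr6:113638217-113638466 (plus strand); and in Irak1 chrX:74023919-74024168 (minus strand).
Myd88: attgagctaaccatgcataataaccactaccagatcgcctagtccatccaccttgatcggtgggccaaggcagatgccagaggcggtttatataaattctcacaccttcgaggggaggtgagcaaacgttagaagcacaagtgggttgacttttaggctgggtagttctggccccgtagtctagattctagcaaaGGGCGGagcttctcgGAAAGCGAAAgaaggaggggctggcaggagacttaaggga
Irak2: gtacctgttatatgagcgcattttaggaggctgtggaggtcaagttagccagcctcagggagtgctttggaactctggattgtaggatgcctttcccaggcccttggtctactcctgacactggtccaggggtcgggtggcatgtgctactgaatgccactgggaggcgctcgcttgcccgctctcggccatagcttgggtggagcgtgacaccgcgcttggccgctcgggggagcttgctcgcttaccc
Ticam1: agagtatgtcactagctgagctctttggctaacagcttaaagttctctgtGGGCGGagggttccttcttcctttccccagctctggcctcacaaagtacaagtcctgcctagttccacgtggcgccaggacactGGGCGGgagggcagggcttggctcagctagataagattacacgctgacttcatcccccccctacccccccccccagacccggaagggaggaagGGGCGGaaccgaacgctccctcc
Irak1: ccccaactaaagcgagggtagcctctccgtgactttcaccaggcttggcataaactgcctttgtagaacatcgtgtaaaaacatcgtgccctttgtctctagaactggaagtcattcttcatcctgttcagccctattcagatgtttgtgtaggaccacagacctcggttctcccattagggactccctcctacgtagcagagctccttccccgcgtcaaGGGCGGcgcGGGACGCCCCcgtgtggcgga
The Myd88 window holds an interferon-response core, a pair of GAAA units with any 2 bases between them (GAAAGCGAAA), 40 to 31 bases before the start and a GC box (GGGCGG) 55 to 50 bases before it. Ticam1 holds 3 GC boxes. The Irak1 window holds a match to the NF-kB consensus, GGGACGCCCC, 21 to 12 bases before the start, and a GC box. None of the 6 motifs was found in the Irak2 window, which says only that these letters are not in these 250 bases. Among 32851 windows of the same length, 2.98% hold the interferon-response core, 32.7% a GC box, 7.25% the NF-kB consensus, 6.75% the AP-1 motif TGANTCA, 1.55% the CRE motif TGACGTCA and 2.44% the PU.1 core GAGGAAGT. A match is a run of letters and not a site shown to be used. Windows were matched for 7 of the 10 genes, and not for Cd14, Ly96 or Ticam2.

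Between genes, levels are compared per kilobase of exonic length. In untreated macrophages Cd14 stood first at 356 ± 9.08 CPM per kilobase (mean ± SD, n = 2), place 164 among the 12918 genes. Myd88 followed at 66.7 ± 0.396, above every other adaptor and kinase. Then came Irak1 (24.4 ± 0.789), Ticam2 (21.0 ± 0.147), Irak4 (19.4 ± 1.19), Ly96 (19.2 ± 1.33), Irak2 (17.4 ± 0.778), Irak3 (15.8 ± 0.694), Ticam1 (9.16 ± 0.760) and Tirap (5.27 ± 0.206). Of these neighbours, only Irak4 and Ly96 had libraries that overlapped. After 2 h at 10 nM Cd14 led at 2273 ± 39.7 CPM per kilobase, followed by Myd88 at 245 ± 8.63 and Irak2 at 118 ± 7.37, which had moved from place 7 to place 3 among the 10 genes. Ly96 (46.6 ± 1.88) and Irak3 (44.9 ± 1.12) came next with overlapping libraries, then Ticam2 (32.8 ± 1.07), Irak1 (20.1 ± 0.471), Ticam1 (16.7 ± 0.220), Irak4 (12.95 ± 0.147) and Tirap (8.82 ± 0.0478). Tirap was the lowest of the 10 in all 5 groups.

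**Figure D1:**
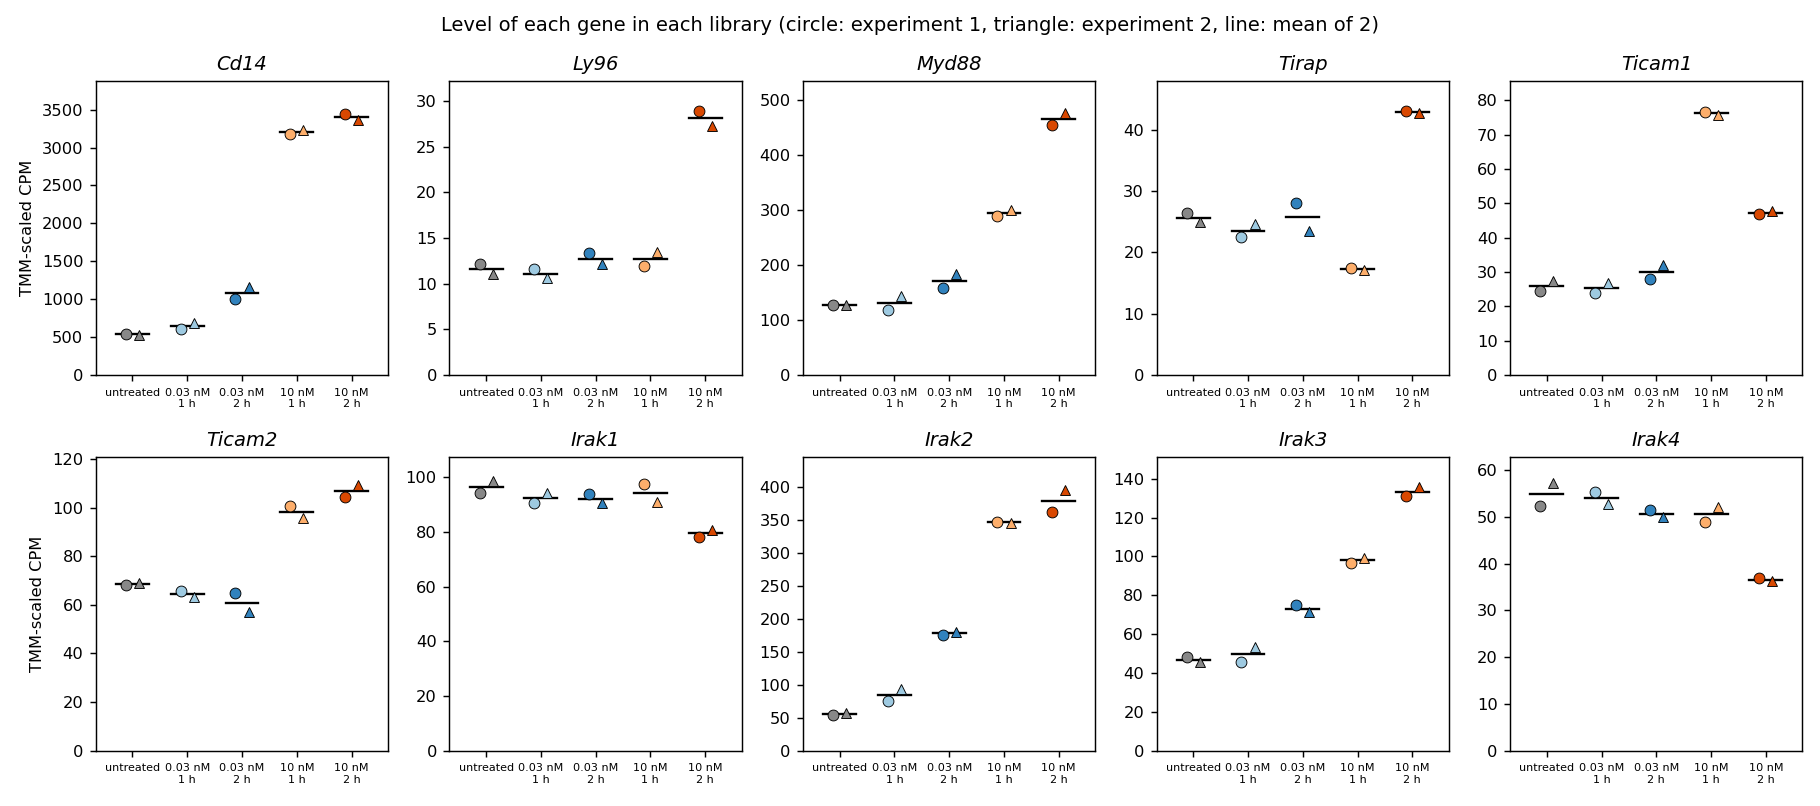
Each panel plots the TMM-scaled CPM of 1 gene (vertical axis, from 0, with its own scale) in the 5 groups (horizontal axis), with a circle for experiment 1, a triangle for experiment 2 and a line at their mean. Cd14 and Irak2 are high at both times at 10 nM, and Ticam1 is highest at 10 nM 1 h. Tirap is lowest at 10 nM 1 h and highest at 10 nM 2 h, and Ly96 stands above its other groups only at 10 nM 2 h.

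The co-receptor genes followed different time courses. Cd14 (mm9 chromosome 18, 36884721 to 36886308, 2 exonic blocks) was at 543 and 524 CPM in untreated cells, 611 and 682 at 0.03 nM 1 h, 1007 and 1157 at 0.03 nM 2 h, 3185 and 3233 at 10 nM 1 h, and 3444 and 3360.2 at 10 nM 2 h. The 10 nM libraries lay above all others at both times, and the 0.03 nM 2 h libraries lay between them and the rest. Cd14 rose 6.02-fold by 1 h at 10 nM (log2 2.59 ± 0.09 SE, adjusted p = 6.96e-10) and stood 6.38-fold up at 2 h (2.67 ± 0.09, adjusted p = 3.24e-10). The low dose gave a 2.03-fold rise at 2 h (1.02 ± 0.08, adjusted p = 8.9e-06) and at 1 h a log2 difference of 0.28 ± 0.08 that did not pass (adjusted p = 0.251). All adjusted p-values are from edgeR's quasi-likelihood test with Benjamini-Hochberg adjustment over the 12918 genes, and a gene is said to have risen or fallen where that value is below 0.05. Without either 0.03 nM 2 h library, which enter the shared estimate of spread, the 1 h difference of Cd14 passed (adjusted p = 0.0284 and 0.0296).

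Ly96 (chromosome 1, 16678537 to 16699686, 5 exonic blocks) was near its untreated level until the last point. Its level was 12.1 and 11.02 CPM in untreated cells, 11.6 and 10.6 at 0.03 nM 1 h, 13.3 and 12.1 at 0.03 nM 2 h, 11.97 and 13.4 at 10 nM 1 h, and 28.9 and 27.3 at 10 nM 2 h. Only the 10 nM 2 h libraries stood clear of the untreated ones, with a 2.42-fold rise (log2 1.28 ± 0.11, adjusted p = 8.71e-07). The difference at 10 nM 1 h was 0.13 ± 0.11 (adjusted p = 0.39). The ratio of Cd14 to Ly96 per kilobase went from 18.6 ± 0.811 in untreated cells to 102 ± 7.21 at 10 nM 1 h and came back to 48.8 ± 1.12 at 2 h, when Ly96 had risen and the further change of Cd14 did not pass. At 0.03 nM the same ratio was 23.6 ± 3.32 at 1 h and 34.5 ± 5.69 at 2 h.

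Of the adaptors for the plasma membrane route, Myd88 rose in a graded way and Tirap first fell and then rose. Myd88 (chromosome 9, 119245106 to 119249158, 6 exonic blocks) was at 126 and 128 CPM in untreated cells, 119 and 143 at 0.03 nM 1 h, 159 and 183 at 0.03 nM 2 h, 289 and 299.8 at 10 nM 1 h, and 455 and 478 at 10 nM 2 h. At 10 nM it rose 2.32-fold at 1 h (log2 1.21 ± 0.10, adjusted p = 1.39e-06) and 3.67-fold at 2 h (1.88 ± 0.10, adjusted p = 1.54e-08). The libraries at 10 nM did not overlap with any others, while those at 0.03 nM 1 h lay on either side of the untreated pair. At 0.03 nM the rise at 2 h was 1.35-fold (0.43 ± 0.10, adjusted p = 0.0156). Leaving out either untreated library ended that call (adjusted p = 0.119 for experiment 1 and 0.107 for experiment 2), as did leaving out the experiment 2 library at 0.03 nM 2 h (0.0545) and a fit of only the groups compared (0.07).

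Tirap, whose product carries MyD88 to the receptor (chromosome 9, 34991976 to 35007876, 8 exonic blocks), had 26.4 and 25.0 CPM in untreated cells, 22.5 and 24.6 at 0.03 nM 1 h, 28.1 and 23.5 at 0.03 nM 2 h, 17.4 and 17.2 at 10 nM 1 h, and 43.1 and 42.8 at 10 nM 2 h. The 10 nM libraries thus lay below all others at 1 h and above all others at 2 h. It fell 1.48-fold at 1 h (log2 -0.57 ± 0.10, adjusted p = 0.000824) and stood 1.67-fold above untreated cells at 2 h (0.74 ± 0.10, adjusted p = 4.21e-05). With scaling by library totals alone the 2 h difference was 0.19 (adjusted p = 0.11) and the fall at 1 h was -0.94. Between 1 h and 2 h at 10 nM it rose 2.49-fold (1.31 ± 0.10, adjusted p = 1.43e-06), by 1.31 in experiment 1 and 1.32 in experiment 2. At 0.03 nM its log2 differences from untreated cells were -0.13 ± 0.10 at 1 h and 0.01 ± 0.10 at 2 h, and neither passed.

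Of the adaptors for the endosomal route, Ticam1 peaked early and Ticam2 held a small rise. Ticam1, which encodes TRIF (chromosome 17, 56408885 to 56416190, 2 exonic blocks), was at 24.4 and 27.4 CPM in untreated cells, 23.9 and 26.9 at 0.03 nM 1 h, 28.0 and 32.1 at 0.03 nM 2 h, 76.6 and 75.7 at 10 nM 1 h, and 46.8 and 47.6 at 10 nM 2 h. It rose 2.94-fold at 10 nM 1 h (log2 1.56 ± 0.10, adjusted p = 1.31e-07) and was 1.82-fold up at 2 h (0.86 ± 0.10, adjusted p = 9.93e-06), a fall of 1.61-fold between the times (-0.69 ± 0.10, adjusted p = 0.000119). Both times at 10 nM lay above every other library. The difference at 0.03 nM 2 h was 0.21 ± 0.10 (adjusted p = 0.226). With the experiment 1 library at 0.03 nM 2 h left out, that difference was 0.31 and passed (adjusted p = 0.0326).

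Ticam2, which encodes TRAM (chromosome 18, 46717885 to 46734187, 3 exonic blocks), had 68.3 and 69.0 CPM in untreated cells, 65.7 and 63.2 at 0.03 nM 1 h, 64.9 and 56.9 at 0.03 nM 2 h, 100.5 and 95.8 at 10 nM 1 h, and 104 and 109 at 10 nM 2 h. The rise was 1.43-fold at 10 nM 1 h (log2 0.52 ± 0.08, adjusted p = 0.000304) and 1.56-fold at 2 h (0.64 ± 0.08, adjusted p = 2.6e-05). Both calls rested on the scaling, since with library totals alone the differences were 0.15 (adjusted p = 0.133) and 0.08 (0.376). At 0.03 nM all 4 libraries lay below the untreated pair, with a log2 difference of -0.17 ± 0.08 at 2 h (adjusted p = 0.233), which was -0.27 and passed with the experiment 1 library of that group left out (0.0133).

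**Figure D2:**
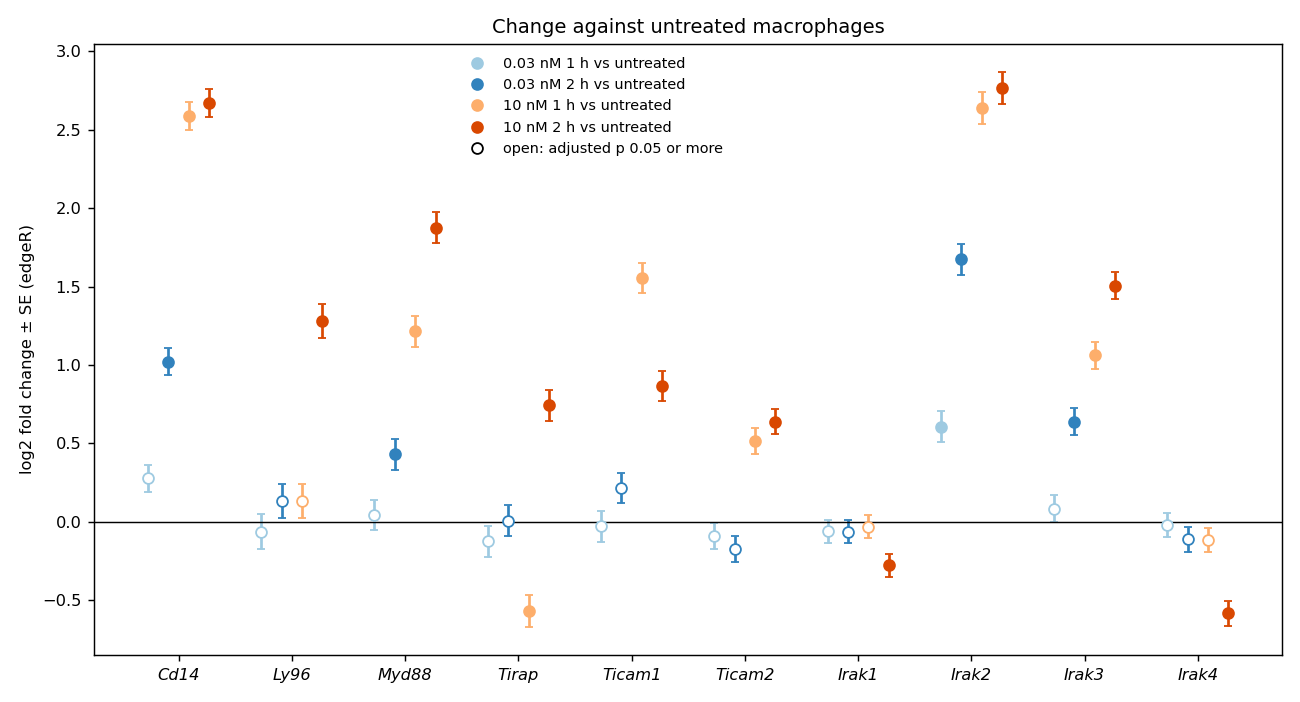
The log2 fold change of each gene against untreated macrophages (vertical axis, points ± SE from edgeR) is plotted for the 10 genes (horizontal axis) and the 4 stimulated groups (colours), with open points where the adjusted p is 0.05 or more. Irak2 is the only filled point at 0.03 nM 1 h, at 0.61, and at 10 nM 2 h all 10 points are filled, from -0.58 for Irak4 to 2.77 for Irak2.

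Among the kinases, Irak2 and Irak3 rose and Irak1 and Irak4 did not. Irak2, which prolongs Myddosome signalling (chromosome 6, 113588461 to 113645020, 13 exonic blocks), was at 53.9 and 57.4 CPM in untreated cells, 75.8 and 93.6 at 0.03 nM 1 h, 175 and 179.6 at 0.03 nM 2 h, 347 and 345 at 10 nM 1 h, and 362 and 395 at 10 nM 2 h. Every stimulated library lay above the untreated pair, and the groups did not overlap in that order. The rise was 1.52-fold at 0.03 nM 1 h (log2 0.61 ± 0.10, adjusted p = 0.00655), 3.19-fold at 0.03 nM 2 h (1.67 ± 0.10, adjusted p = 6.03e-07), 6.22-fold at 10 nM 1 h (2.64 ± 0.10, adjusted p = 2.11e-09) and 6.8-fold at 10 nM 2 h (2.77 ± 0.10, adjusted p = 7.56e-10). The call at 0.03 nM 1 h did not survive leaving out either untreated library (adjusted p = 0.132 for experiment 1 and 0.0512 for experiment 2), leaving out the experiment 2 library at 0.03 nM 1 h (log2 0.44, adjusted p = 0.0705) or fitting only the groups compared (0.0693).

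Irak3, which encodes the inhibitory IRAK-M (chromosome 10, 119578710 to 119638593, 12 exonic blocks), had 48.4 and 45.5 CPM in untreated cells, 45.9 and 53.5 at 0.03 nM 1 h, 74.8 and 71.2 at 0.03 nM 2 h, 96.5 and 99.4 at 10 nM 1 h, and 131 and 136 at 10 nM 2 h. The last 3 groups lay above the untreated and 0.03 nM 1 h libraries in rising order. Its rise was 1.56-fold at 0.03 nM 2 h (log2 0.64 ± 0.09, adjusted p = 0.000448), 2.09-fold at 10 nM 1 h (1.06 ± 0.09, adjusted p = 1.29e-06) and 2.84-fold at 10 nM 2 h (1.51 ± 0.09, adjusted p = 2.81e-08). At 0.03 nM 1 h the difference was 0.08 ± 0.09 (adjusted p = 0.983).

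Irak4, the kinase that starts the Myddosome cascade (chromosome 15, 94374091 to 94398747, 12 exonic blocks), was at 52.4 and 57.2 CPM in untreated cells, 55.4 and 52.7 at 0.03 nM 1 h, 51.4 and 49.96 at 0.03 nM 2 h, 49.0 and 52.1 at 10 nM 1 h, and 36.9 and 36.3 at 10 nM 2 h. Only the 10 nM 2 h libraries lay clear below the rest, a fall of 1.5-fold (log2 -0.58 ± 0.08, adjusted p = 4.55e-05). Irak1, the kinase that IRAK4 activates (chromosome X, 71259253 to 71269260, 15 exonic blocks), had 94.2 and 98.6 CPM in untreated cells, 90.6 and 94.2 at 0.03 nM 1 h, 93.8 and 90.6 at 0.03 nM 2 h, 97.6 and 90.9 at 10 nM 1 h, and 78.3 and 80.9 at 10 nM 2 h. It too was lowest at 10 nM 2 h, by 1.21-fold (-0.28 ± 0.07, adjusted p = 0.00652), a call that needed the experiment 2 untreated library (adjusted p = 0.0569 when it was left out). At 10 nM 1 h the log2 differences were -0.12 ± 0.08 for Irak4 and -0.03 ± 0.07 for Irak1, and neither passed. With library totals alone both passed downward there, at -0.48 for Irak4 (adjusted p = 0.000333) and -0.40 for Irak1 (0.000597). Exons of Irak1 overlap those of the microRNA genes Mir718 (73 bases) and Mir5132 (6 bases) on the same strand, and no other exon overlap was found for the 10 genes.

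Shares within a family do not depend on how libraries are scaled. In untreated cells the 4 kinase genes were near parity: of their summed CPM per kilobase, Irak1 made up 31.7% ± 0.176 (SD, n = 2), Irak4 25.2% ± 0.871, Irak2 22.6% ± 0.405 and Irak3 20.5% ± 1.45. At 10 nM 2 h Irak2 made up 60.3% ± 1.05, Irak3 22.9% ± 0.454, Irak1 10.2% ± 0.220 and Irak4 6.60% ± 0.371. Most of that shift was present at 10 nM 1 h, when Irak2 was at 59.2% ± 0.195 and Irak4 at 9.79% ± 0.432. At 0.03 nM Irak2 was at 30.8% ± 2.54 at 1 h and 45.7% ± 1.12 at 2 h. The share of Irak3 moved least, between 18.03% ± 0.404 at 10 nM 1 h and 22.9% at 10 nM 2 h. The ratio of Irak2 to Irak1 per kilobase went from 0.714 ± 0.00881 to 4.55 ± 0.209 at 10 nM 1 h and 5.88 ± 0.228 at 10 nM 2 h, and that of Irak3 to Irak4 from 0.817 ± 0.0859 to 1.84 ± 0.0400 and 3.47 ± 0.126.

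Among the adaptors, Myd88 made up 65.3% ± 0.314 of the summed CPM per kilobase in untreated cells, Ticam2 20.6% ± 0.0773, Ticam1 8.96% ± 0.648 and Tirap 5.16% ± 0.257. Myd88 reached 71.9% ± 0.936 at 10 nM 1 h and 80.8% ± 0.218 at 10 nM 2 h. Ticam1 was at 12.5% ± 0.259 at 10 nM 1 h and 5.51% ± 0.107 at 2 h, above and then below its untreated share. Tirap was at 1.65% ± 0.0338 and then 2.91% ± 0.111, below its untreated share at both times. The ratio of Myd88 to Tirap, the adaptor that positions it, was 12.7 ± 0.570 in untreated cells, 43.6 ± 1.46 at 10 nM 1 h and 27.7 ± 1.13 at 10 nM 2 h. The ratio of Ticam1 to Tirap went from 1.74 ± 0.212 to 7.58 ± 0.00198 and back to 1.89 ± 0.0352. The very small SD at 10 nM 1 h comes from 2 close values (7.585 and 7.582). It is not a measure of precision, since Tirap had only 601 and 650 counts there.

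**Figure D3:**
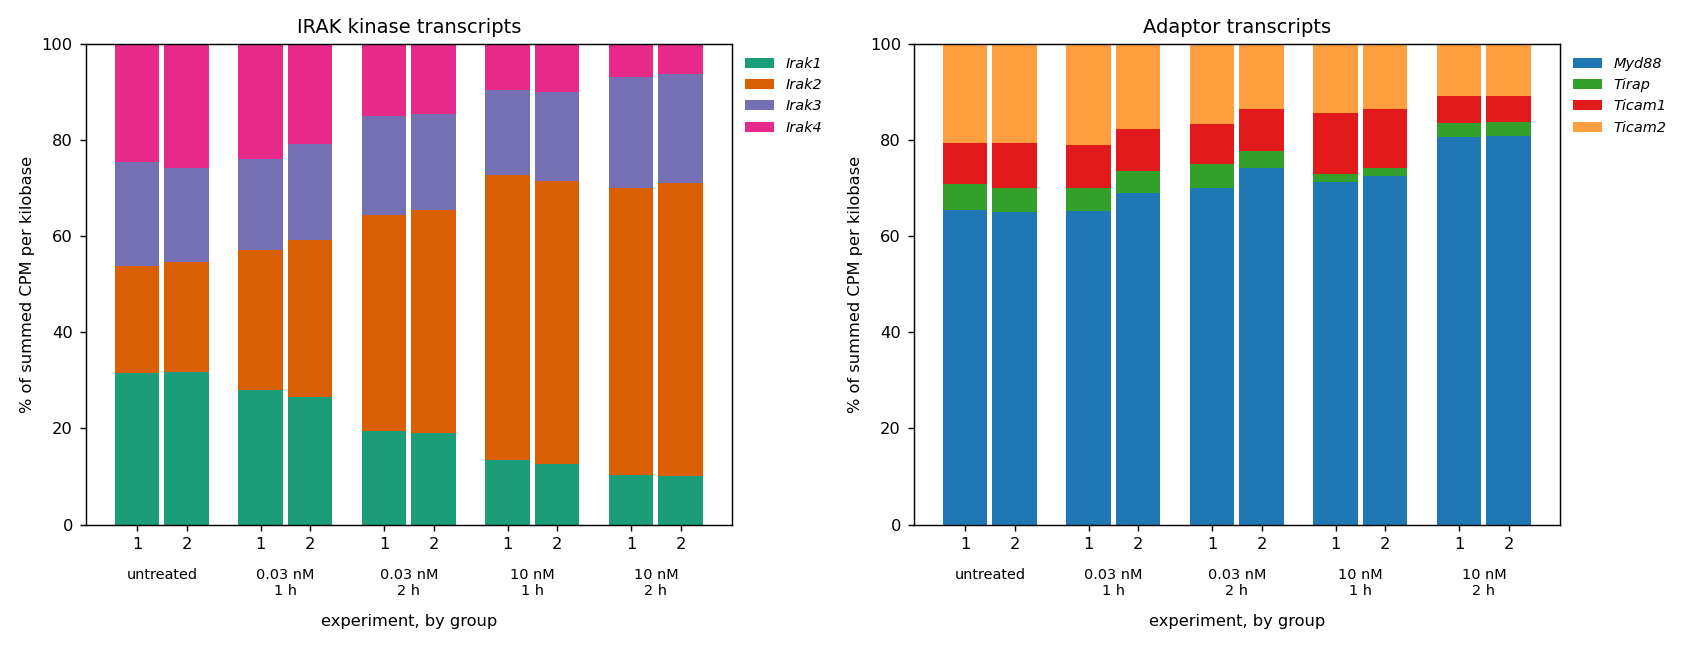
Stacked bars show, for each library (horizontal axis, experiments 1 and 2 within each group), the percent of the family's summed CPM per kilobase (vertical axis) taken by each kinase gene (left) and each adaptor gene (right). Irak2 widens from 22.6% in untreated cells to 60.3% at 10 nM 2 h while Irak1 and Irak4 narrow, and Myd88 widens from 65.3% to 80.8%.

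Counted together, 1 of the 10 genes rose at 0.03 nM 1 h, where 1.42% of all tested genes rose. At 0.03 nM 2 h 4 of the 10 rose, against 6.45% of all genes, with a median log2 change of 0.17 over the 10 and 0.00 over all genes. Cd14, Myd88, Irak2 and Irak3 were those 4, and with either library of that group left out Cd14, Irak2 and Irak3 still passed. At 10 nM 1 h 6 of the 10 rose and 1 fell, against 18.5% and 18.3% of all genes (median 0.79 over the 10, -0.02 over all). At 10 nM 2 h 8 rose and 2 fell, against 28.6% and 30.1% of all genes (median 1.07 over the 10, -0.03 over all). With scaling by library totals alone the split was 5 up and 3 down at 10 nM 1 h and 6 up and 2 down at 2 h, on a scale where the median of all genes was -0.38 and -0.59.

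Comparing the doses at the same time asks how far the response depends on the amount of ligand, free of elapsed time. At 1 h 6 genes were higher at 10 nM than at 0.03 nM and 1 was lower, against 18% and 17.3% of all genes. Cd14 was 4.96-fold higher (log2 2.31 ± 0.09, adjusted p = 2.71e-09), Irak2 4.08-fold (2.03 ± 0.10, adjusted p = 2.06e-08) and Ticam1 3-fold (1.58 ± 0.10, adjusted p = 1.42e-07). Myd88 (1.17 ± 0.10), Irak3 (0.98 ± 0.09) and Ticam2 (0.61 ± 0.08) were also higher, and Tirap was lower (-0.44 ± 0.10, adjusted p = 0.00473). Ly96 (0.20 ± 0.11), Irak4 (-0.10 ± 0.08) and Irak1 (0.03 ± 0.07) did not pass, and with library totals alone Irak4 (-0.45) and Irak1 (-0.33) passed downward.

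At 2 h 8 genes were higher at 10 nM and 2 were lower, against 25.6% and 27.2% of all genes. Cd14 was 3.14-fold higher (log2 1.65 ± 0.09, adjusted p = 2.12e-08), Myd88 2.73-fold (1.45 ± 0.10, adjusted p = 2.15e-07), Ly96 2.21-fold (1.15 ± 0.11, adjusted p = 3.07e-06) and Irak2 2.13-fold (1.09 ± 0.10, adjusted p = 1.82e-06). Irak3 (0.87 ± 0.09), Ticam2 (0.81 ± 0.08), Tirap (0.74 ± 0.10) and Ticam1 (0.65 ± 0.10) were higher as well. The call of Ticam1 was lost with library totals alone (0.16, adjusted p = 0.144). Irak4 was lower by 1.39-fold (-0.47 ± 0.08, adjusted p = 0.000312). Irak1 was lower by 1.16-fold (-0.21 ± 0.07, adjusted p = 0.0295), a call lost when either 10 nM 2 h library was left out (adjusted p = 0.141 for experiment 1 and 0.0737 for experiment 2), with DESeq2 (0.0866), with DESeq2's size factors in edgeR (0.0593) and with only the groups compared (0.138).

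Over the step from 1 h to 2 h some genes changed further and for others the change did not pass. A change that did not pass does not show that a level was reached. At 10 nM 4 genes rose over the second hour and 3 fell, against 21.3% and 21.5% of all genes. Tirap rose 2.49-fold, Ly96 2.21-fold (log2 1.14 ± 0.11, adjusted p = 6.6e-06), Myd88 1.58-fold (0.66 ± 0.10, adjusted p = 0.0002) and Irak3 1.36-fold (0.44 ± 0.08, adjusted p = 0.00121). Ticam1 fell, as did Irak4 (-0.47 ± 0.08, adjusted p = 0.000528) and Irak1 (-0.24 ± 0.07, adjusted p = 0.0192). The call of Irak1 was lost when the experiment 1 library at 10 nM 1 h was left out (adjusted p = 0.148), or the library of experiment 1 (0.11) or 2 (0.0558) at 10 nM 2 h. Cd14 (0.08 ± 0.08), Irak2 (0.13 ± 0.10) and Ticam2 (0.12 ± 0.08) did not pass.

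**Figure D4:**
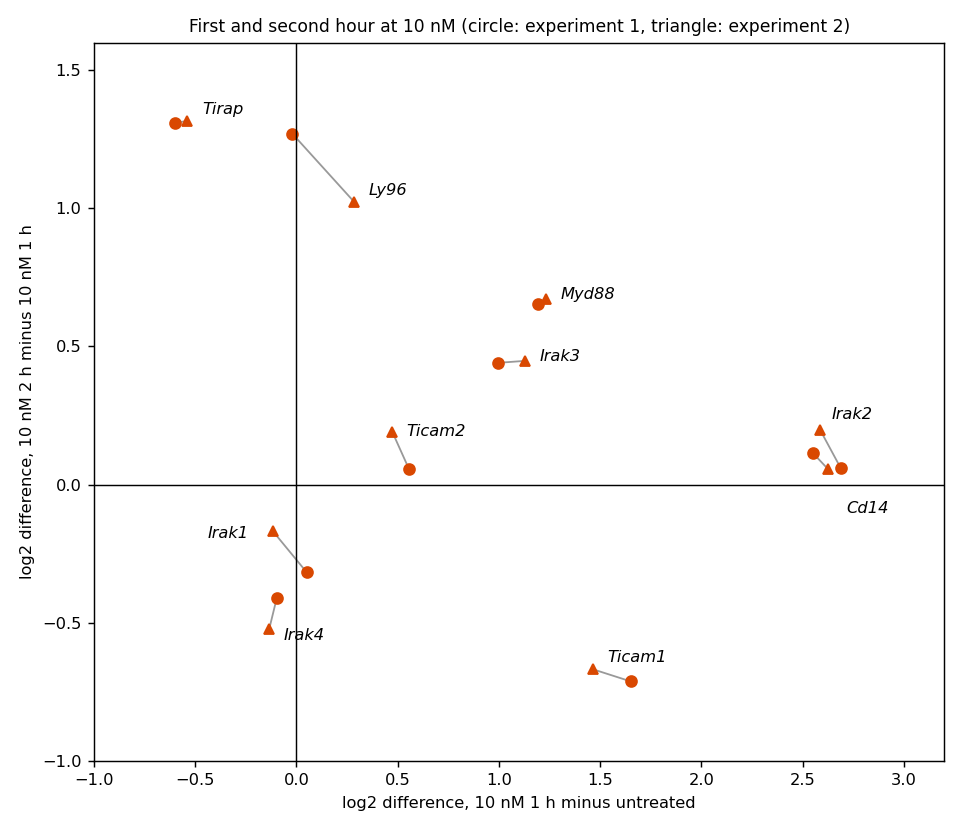
For each gene the log2 difference of 10 nM 1 h from untreated cells (horizontal axis) is plotted against that of 10 nM 2 h from 10 nM 1 h (vertical axis), with a circle for experiment 1, a triangle for experiment 2 and a line joining them. Tirap lies at the upper left, at -0.60 and 1.31 in experiment 1, Ticam1 at the lower right, and Cd14 and Irak2 far right near the zero line. The 10 nM 1 h libraries enter both axes, with opposite sign.

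At 0.03 nM 4 genes rose over the second hour, against 3.51% of all genes. Irak2 rose 2.09-fold (log2 1.07 ± 0.10, adjusted p = 8.34e-05), Cd14 1.67-fold (0.74 ± 0.08, adjusted p = 0.0003), Irak3 1.47-fold (0.56 ± 0.09, adjusted p = 0.00252) and Myd88 1.31-fold (0.39 ± 0.10, adjusted p = 0.0449). The Myd88 call was close to the threshold and was lost in 12 of the 17 alternative fits, with an adjusted p of up to 0.358 with the experiment 1 library at 0.03 nM 1 h left out. The Irak3 call was lost with only the groups compared (adjusted p = 0.0814). The interaction of dose and time tests whether the second-hour step differed between doses. As a signed log2 value it was higher at 10 nM for 2 genes and lower for 4, against 10.4% and 11.6% of all genes. The step was higher at 10 nM for Tirap (log2 difference of the steps 1.18 ± 0.14, adjusted p = 0.000126) and Ly96 (0.95 ± 0.15, adjusted p = 0.00101). It was lower for Irak2 (-0.94 ± 0.14, adjusted p = 0.000501), Ticam1 (-0.93 ± 0.14, adjusted p = 0.000507), Cd14 (-0.66 ± 0.12, adjusted p = 0.00199) and Irak4 (-0.37 ± 0.11, adjusted p = 0.0301). For Irak2 (0.13 against 1.07) and Cd14 (0.08 against 0.74) the step at 10 nM was smaller and did not itself pass. For Ticam1 (-0.69 against 0.24) and Irak4 (-0.47 against -0.09) the step at 10 nM was downward. The call of Irak4 was lost with DESeq2 (adjusted p = 0.0573) and in 6 of the 10 fits that left out 1 library, at up to 0.124 for the experiment 2 library at 10 nM 1 h. Myd88 (0.28 ± 0.14), Ticam2 (0.21 ± 0.11), Irak1 (-0.24 ± 0.10) and Irak3 (-0.11 ± 0.12) did not pass.

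The genes around these 10 in the pathway are given at 10 nM 2 h against untreated cells, where 28.6% of all tested genes rose and 30.1% fell. The receptor gene itself, Tlr4, was at 119 and 133 CPM in untreated cells and 97.2 and 108 at 10 nM 2 h, a log2 difference of -0.30 ± 0.13 that did not pass (adjusted p = 0.0777). At 0.03 nM 2 h Tlr4 was at 96.2 and 68.2 CPM and had fallen by 0.62 on the log2 scale (adjusted p = 0.0129). The fall was 0.89 and 0.38 with the library of experiment 1 or 2 in that group left out. The libraries of that group differed most from each other, and by exonic length, and the part of this in the fall was not tested. Of 13 Toll-like receptors and surface partners, 6 rose and 2 fell, with Tlr2, the receptor for bacterial lipoproteins, up 10.6-fold (3.40 ± 0.10, adjusted p = 1.24e-10) and Tlr9, the endosomal DNA receptor, down by 0.99 on the log2 scale. Of 8 chaperone and trafficking genes 4 rose and 2 fell, with Rab10 up 2.28-fold and Cnpy3, a chaperone of Toll-like receptors, down by 0.41 on the log2 scale. Of 5 tested interleukin 1 receptor family genes, which share MyD88 and the IRAKs, 3 rose, with Il1r1 up 7.88-fold from 1.401 to 11.1 CPM. Il1rl2 (1.10 ± 0.51) and Il1rl1 (0.01 ± 0.24) did not pass.

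Of 10 genes for known brakes on the pathway 4 rose and 3 fell, near the 28.6% and 30.1% of all genes, with Pik3ap1 up 2.01-fold and Dok3 down by 1.27 on the log2 scale. Of the 11 genes of the Pellino, TRAF and TAK1 step just after the IRAKs, 8 rose and 2 fell, beside the same shares. Peli1, a ubiquitin ligase that acts on IRAK1, rose 18.8-fold, from 42.3 ± 1.81 to 793 ± 36.5 CPM (log2 4.23 ± 0.10, adjusted p = 3.5e-11), a larger rise than in any of the 10 genes. Tab1, a partner of the kinase TAK1, fell by 2.59 on the log2 scale. Of 9 IKK, TBK1 and RIPK1 genes 6 rose and 1 fell, again beside 28.6% and 30.1% of all genes, with Tank up 7.04-fold and Tbkbp1 down by 1.02 on the log2 scale. The median log2 changes of these 6 lists ran from -0.46 for the brakes to 1.10 for the interleukin 1 receptor family. That of the 10 genes was 1.07. Both ends rest partly on genes with few counts. The 1.10 is the value of Il1rl2, which did not pass and had a mean of 0.832 CPM over all libraries. Among the brakes, Sarm1 (-1.06, mean 0.282 CPM), Sigirr (-1.02, 0.901) and Irak1bp1 (-1.08, 0.886) did not pass. The low gene Il1r2 (0.311 CPM) went the other way, by 3.05. A difference between lists was not tested.

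Across the 10 libraries, the genes whose log2 CPM most resembled that of each member were named for the 7 members that spanned at least 1 log2 unit between group means. Pearson's r is given as a description over 10323 genes, and it is high for many genes because the 5 groups shape all of them. Cd14 was most like Sqstm1 (r = 0.998), Irak2 most like Zfp263 (0.997) and Irak3 most like Dusp16 (0.997). Myd88 was most like Tagln2 (0.996), Ly96 most like Csda (0.995) and Ticam1 most like Apbb3 (0.990). Tirap, which fell and then rose, had the least company: its closest gene was Usp42 (0.984), the only gene above 0.98. The numbers of genes above 0.98 were 10 for Ticam1, 31 for Ly96, 66 for Irak2, 109 for Irak3, 150 for Cd14 and 233 for Myd88.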

How the data were processed

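RNA was sequenced in 10 libraries of mouse macrophages. Library preparation used a directional NEBNext Ultra kit after Qiazol extraction, per the labels' protocols. The deposited counts are whole numbers of reads per gene model, with featureCounts columns, per the file headers, and the build is mm9, per the submitters' processing notes. TopHat2 2.0.11 and featureCounts 1.4.5-p1 are listed in the submitters' processing notes, along with bcl2fastq 2.15.0.4 and DESeq2. Their roles are not stated, and the strand setting is not given in the sources used here. Reads of genes that overlap on opposite strands could therefore be shared, though no exon overlap on opposite strands was found for the 10 genes. The authors also deposited regularised log2 values of the same libraries, used here only as an alternative.

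Raw counts were fitted with edgeR 4.0.16 in R 4.3.3 (filterByExpr, TMM, robust quasi-likelihood, 1 mean per group, 10 libraries, 5 residual degrees of freedom), with Benjamini-Hochberg adjustment and a threshold of 0.05. On simulated data for 10 nM 2 h against untreated (12742 genes), 59% of 1.5-fold and 95% of 2-fold changes were recovered with 4 false calls. The simulation changed only 100 genes at each fold, equally up and down and none with low counts, in the 10 nM 2 h group alone. In the data 28.6% of tested genes rose there and 30.1% fell, so these rates may not carry over to the data. Alternatives were DESeq2 1.42.0, limma 3.58.1 on the log2 values, other scalings, no filter, an experiment block, only the groups compared, and each library left out. The experiment numbers in the labels pair the libraries: deviations from group means over 8415 genes (mean of at least 3 log2 CPM) had a correlation between groups of -0.264 to 0.546, with a median of 0.248, and it exceeded 0.1 for 7 of the 10 pairs. CPM per kilobase uses the exonic length in the count table. Promoter windows are RefSeq's (GRCm38.p6).

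The 10 members, the pathway lists and the markers were chosen with earlier results of these data known. Named from each list were the called gene with the smallest p in each direction at 10 nM 2 h; Tlr4, Il1rl1 and Il1rl2 were named after their values were seen. Of the 3 closest genes found for each member, which had to have a mean of at least 1 log2 CPM, the first is named.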

Additional observations from a re-analysis of the deposited data

Results flagged for a closer look

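For 6 of the 10 genes the change from 1 h to 2 h differed between the doses by the interaction test in edgeR. As a signed value it was higher at 10 nM for 2 and lower for 4, against 10.4% and 11.6% of all tested genes. On the log2 scale the step at 10 nM minus that at 0.03 nM was 1.18 for Tirap and 0.95 for Ly96. Tirap had fallen by 1 h at 10 nM before it rose, while the 1 h difference of Ly96 did not pass. It was -0.94 for Irak2, -0.93 for Ticam1, -0.66 for Cd14 and -0.37 for Irak4. Both experiments gave the same sign for each of the 6, as they did for 9 of all 10 genes. The calls came from these same libraries, so the agreement is not separate support for them. By experiment the values were 0.99 and 1.38 for Tirap, 1.07 and 0.83 for Ly96, and -1.15 and -0.74 for Irak2. For Ticam1 they were -0.94 and -0.92, for Cd14 -0.61 and -0.71, and for Irak4 -0.30 and -0.44. The steps behind these values differ in kind: Irak2 and Cd14 rose over the second hour at 0.03 nM (log2 1.07 and 0.74) and did not pass at 10 nM, Ticam1 and Irak4 fell at 10 nM, and Tirap and Ly96 rose at 10 nM. No untreated group at 1 h or 2 h enters this comparison.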

How the results depend on the processing

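Of 90 results (10 genes in 9 comparisons), 56 passed the threshold. The shares of all genes called are given above, beside the count in each comparison. Of the 56, 44 passed under all 17 alternatives and 12 were lost under at least 1. Of the 34 that did not pass, 24 did not pass under any, 9 passed in the same direction under at least 1 and 1 was reversed. With a replicate block for the experiment, which pairs the libraries, the genes called numbered 1, 4, 7 and 10 in the comparisons with untreated cells (0.03 nM 1 h and 2 h, 10 nM 1 h and 2 h), 7 and 10 between doses, 4 and 7 between times and 6 in the interaction, as without it. With only the groups compared, edgeR called 0 at 0.03 nM 1 h (with all groups, 2 had an unadjusted p below 0.05, and DESeq2 called 1) and 2 from 1 h to 2 h at 0.03 nM. Leaving out 1 library gave 0 to 2 at 0.03 nM 1 h. With library totals alone Irak1 at 1 h, 10 nM against 0.03 nM, was reversed from 0.03, not called, to -0.33 (adjusted p = 0.00233). That scaling put the median of all genes at -0.38 at 10 nM 1 h and -0.59 at 10 nM 2 h, and the share of rises among all genes called went from 50.3% to 15.9% and from 48.8% to 19.4%. In the other comparisons where it moved that share by over 10 percentage points, it went from 65.7% to 48.4% at 0.03 nM 2 h, from 50.9% to 15.5% and 48.5% to 18.4% between doses at 1 h and 2 h, from 68.8% to 54.1% and 49.7% to 29.2% between times at 0.03 nM and 10 nM, and from 47.4% to 30.9% in the interaction. Counts over all genes moved by over 1.5 times in some fits. At 0.03 nM 1 h 198 genes were called, and 78 or 114 without either untreated library and 113 without the experiment 2 library at 0.03 nM 1 h. At 0.03 nM 2 h 1268 were called, 668 or 650 without either untreated library, 655 with only the groups compared and 3128 without the experiment 1 library at 0.03 nM 2 h. Between times at 0.03 nM 660 were called, 198 with only the groups compared, 285 without the experiment 1 library at 0.03 nM 1 h and 2833 without that at 0.03 nM 2 h. Library totals alone gave 8035 in place of 4761 at 10 nM 1 h and 7789 in place of 4558 between doses at 1 h. The interaction had 2846, and 1897 without the experiment 1 library at 10 nM 1 h. The cause of these differences was not tested. Where leaving out a library left 1 in a group, that library was assumed to vary like the other groups. The lowest count of the 10 genes was 414, for Ly96, and precision is limited by the 2 libraries per group and, for the low genes, by counting error.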

Other observations

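Genes of the surrounding pathway lists moved at different points of the series. Peli1 had 43.5 and 41.0 CPM in untreated cells (experiments 1 and 2), 47.1 and 52.6 at 0.03 nM 1 h, 90.6 and 78.6 at 0.03 nM 2 h, 365 and 353 at 10 nM 1 h, and 767 and 818 at 10 nM 2 h, so that its level still climbed over the second hour at 10 nM. Tank, which encodes a scaffold of the TBK1 kinase, had 36.6 and 41.1 CPM in untreated cells, 246 and 229.9 at 10 nM 1 h and 273 and 274 at 10 nM 2 h, with most of its rise in the first hour. Il1r1, which encodes the interleukin 1 receptor, was between 1.33 and 2.03 CPM in the untreated, 0.03 nM and 10 nM 1 h libraries and at 10.7 and 11.4 CPM at 10 nM 2 h. Ly96 likewise stood apart from untreated cells only at 10 nM 2 h. Tab1 went down at both steps at 10 nM, from 24.9 and 24.7 CPM in untreated cells to 12.6 and 12.4 at 1 h and 3.68 and 4.55 at 2 h.

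Members of the lists that had risen or fallen were also counted at the earlier time and the lower dose. At 10 nM 1 h against untreated cells 18.5% of all genes rose and 18.3% fell. Of the lists, 6 of 11 Pellino, TRAF and TAK1 genes and 6 of 9 IKK, TBK1 and RIPK1 genes had risen. So had 4 of 13 receptors and surface partners, 2 of 8 trafficking genes, 3 of 10 brakes and 1 of 5 tested interleukin 1 receptor family genes (Il1rap). Tab1 of the Pellino list (log2 -0.99) and Tbkbp1 (-0.90) and Ikbkg (-0.31) of the IKK list had fallen there, as had Dok3 (-0.34) of the brakes. At 0.03 nM 2 h 833 of the 12918 tested genes (6.45%) rose and 435 fell. There 3 of 13 receptors and surface partners had risen (Tlr2, Tlr1 and Tlr6) and 2 had fallen (Tlr4 and Tlr7). Risen too were 3 of 11 Pellino list genes (Peli1, Traf3 and Traf6), 1 of 8 trafficking genes (Rab11a) and 1 of 10 brakes (Siglece). Of the 9 IKK list genes 2 had risen (Ikbke and Tank) and 1 had fallen (Ripk1). None of the 5 tested interleukin 1 receptor family genes passed. With the 0.03 nM 2 h library of experiment 2 left out Tlr7, Ripk1 and Rab11a did not pass (adjusted p = 0.208, 0.140 and 0.107), and with that of experiment 1 left out Traf6 did not (0.0933). These genes are named from their lists after their values were seen, and a difference between lists was not tested.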
